A study of Mus musculus with 3 samples.

Results

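The stretch of mouse chromosome 11 from 86 to 87 Mb (build mm9), which by its definition holds Vmp1 (older name Tmem49) and Mir21 near 86.4 Mb, was examined for binding of the nuclear receptor NUR77. A peak or region was a member if its centre lay in this stretch. The members were 19 of the 6777 peaks of replicate 1, 65 of the 37307 of replicate 2 and 28 of the 8862 of replicate 3, or 112 of 52946 in all, and 26 of the 9800 regions in which peaks of at least 2 replicates overlapped. The stretch was selected on its number of such regions, so its counts and densities are descriptions and were not tested. An mm9 gene annotation was not used here. The position of Mir21 is known only to about 10 kb, and no region is assigned to a gene or to an exon, intron or promoter.

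The series has 1 group of 3 samples. RAW264.7 cells are an established macrophage line from mouse. A stable derivative was used with the transgene pINDUCER20b-HA-NUR77, from which doxycycline induces NUR77 fused to an HA epitope tag, and all 3 replicates, each from 6 dishes, received 1 µg/mL doxycycline for 18 hours. Chromatin was precipitated with an antibody against the tag and sequenced (ChIP-seq), so peaks report the overexpressed, tagged protein. No sample without induction or without the tag was analysed here, and the labels do not say whether the dishes were grown on separate days.

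NUR77, encoded by Nr4a1, is an orphan nuclear receptor that binds DNA as a monomer at the NBRE, an AGGTCA core preceded by a pair of adenines, and also as a dimer. Vmp1 encodes a membrane protein of the endoplasmic reticulum that is required for forming autophagosomes. Mir21 encodes miR-21, an abundant microRNA of macrophages that is induced in inflammation and represses Pdcd4, among other targets. Its precursor lies at the end of the Vmp1 gene, on the same strand. MicroRNAs select their targets mainly through the seed, bases 2 to 8.

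The products of Mir21 are shown since they are what the locus is best known for. The sequences are from RefSeq (build GRCm38.p6, minus strand), where the gene is listed as Mir21a, and capitals in the mature forms mark the seed. Only mmu-miR-21c shares the seed of mmu-miR-21a-5p among the 1738 mature entries of the table, and no other entry shares that of mmu-miR-21a-3p. Mouse microRNAs outside this table were not searched, so others may share these seeds.
mmu-miR-21a-5p: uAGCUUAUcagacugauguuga
mmu-miR-21c: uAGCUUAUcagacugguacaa
mmu-miR-21a-3p: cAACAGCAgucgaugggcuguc

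In the precursor hairpin of Mir21a, 92 bases long, capitals mark the 5p and then the 3p mature form.
Mir21a hairpin: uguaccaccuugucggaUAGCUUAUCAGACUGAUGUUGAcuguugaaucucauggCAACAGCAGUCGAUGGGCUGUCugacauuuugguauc

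The table of promoters lists 3 starts for Vmp1, each with 250 bases before and 50 after it. Both strands were searched for the NBRE (AAAGGTCA, or TGACCTTT on the other strand) and for its core (AGGTCA, or TGACCT), which every NBRE contains. None of the 3 held the NBRE, which 1.51% of all 32851 promoters held. The core was found in 1 of the 3, against 16.3% of all promoters, and that promoter is shown with the core in capitals (RefSeq, GRCm38.p6, minus strand). Since the peaks are placed in mm9, whether a peak covers this sequence was not established, and a match is only a match of letters.
Vmp1 start 2: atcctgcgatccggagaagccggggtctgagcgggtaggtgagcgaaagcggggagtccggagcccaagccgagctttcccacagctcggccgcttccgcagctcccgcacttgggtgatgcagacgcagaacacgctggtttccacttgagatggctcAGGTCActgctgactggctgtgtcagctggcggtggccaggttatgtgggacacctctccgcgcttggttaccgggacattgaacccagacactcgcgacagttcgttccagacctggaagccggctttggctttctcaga

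By order along chromosome 11 in the same RefSeq build, the protein-coding genes next to Vmp1 are Tubd1, Rps6kb1 and Rnft1 on the lower side and Ptrh2, Cltc and Dhx40 on the upper side. Tubd1 encodes delta-tubulin, Rps6kb1 the S6 kinase that acts downstream of mTORC1, and Cltc the clathrin heavy chain. Peaks of the stretch may lie in or near any of these genes, and which of them fall between 86 and 87 Mb in mm9 was not established here.

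NUR77 regions were gathered in the middle of the stretch. The first had its centre at 86.16 Mb and the last at 86.859 Mb, and no region lay in the outermost 100 kb on either side. Between 86.4 and 86.5 Mb there were 10 regions, 7 of them with peaks of all 3 replicates, and between 86.5 and 86.6 Mb there were 6, of which 5 had all 3. The 100 kb below 86.4 Mb held 4 regions, none with all 3. Neighbouring centres were a median of 13.3 kb apart in the stretch, with a shortest distance of 1.35 kb and a longest of 125.3 kb, against a median of 53.5 kb over all chromosomes.

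**Figure D1:**
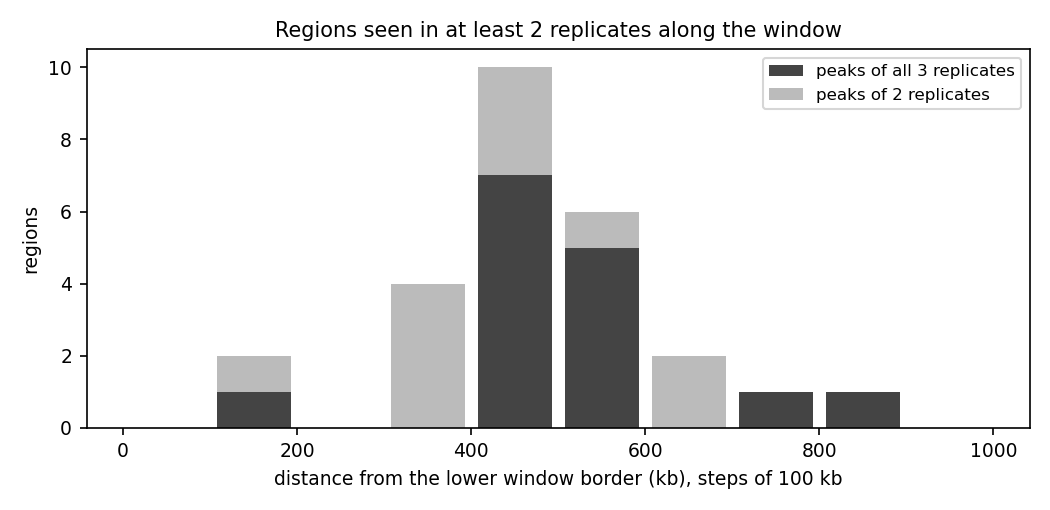
Number of regions seen in at least 2 replicates (vertical axis) along the stretch in steps of 100 kb (horizontal axis, distance from its lower border in kb), with dark bars for regions with peaks of all 3 replicates and light bars for those of 2. The tallest bar, 400 to 500 kb from the border, holds 10 regions, and the bins that start at 0, 200 and 900 kb hold 0.

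With centres up to 13 kb apart joined, the 26 regions formed 6 groups of 2 or more, which held 18 regions, and 8 regions stood alone. The largest group had 5 regions at 86404837 to 86438336, 4 of them with all 3 replicates, and it begins within 5 kb of the position given for Mir21. The next had 4 regions at 86451157 to 86471636, 3 with all 3 replicates. A group of 3 lay at 86537637 to 86545286, and groups of 2 lay at 86316637 to 86321936, 86383937 to 86391086 and 86563537 to 86571336. The joining distance is close to the median spacing, so the grouping depends on it. At 5 kb there were 3 groups, none with more than 2 regions, and at 50 kb the largest group took in 18 of the 26 regions (69.2%), at 86383937 to 86571336. Those 187.4 kb held 12 of the regions with all 3 replicates, 13 peaks of replicate 1, 29 of replicate 2 and 20 of replicate 3.

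The 3 lists contributed unequally to the stretch. It held 0.28% of all peaks of replicate 1, 0.174% of replicate 2 and 0.316% of replicate 3, on average 0.257% ± 0.0738 (SD, n = 3). Peaks of replicate 2 here numbered 3.42 times those of replicate 1, against 5.50 times over the whole lists. They numbered 2.32 times those of replicate 3, against 4.21 times. The stretch was selected on regions shared between lists, so these ratios are not independent of the selection. In 3 denser windows, given below, the ratio of replicate 2 to replicate 1 was 2.5, 3.67 and 3.45. In the megabases below and above the stretch it was 11.5 and 4.55. Replicate 2 took part in all 26 regions, against 98.2% of the 9800 regions genome-wide. All 3 replicates had a peak in 15 of the 26 (57.7%), and genome-wide in 47.8%. Of the rest, 10 lacked replicate 1, 1 lacked replicate 3 and 0 lacked replicate 2. Without replicate 2 the regions fell to 15, and without replicate 3 to 16, while 25 remained in number without replicate 1.

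Score ranks of the peaks spanned nearly the whole of each list. The authors' score per peak has no stated scale, so peaks are placed by rank within their own list, where a low percent means a high score. The median rank was 28.3% of the list in replicate 1, 34.3% in replicate 2 and 42.7% in replicate 3, with a mean of 35.1% ± 7.23 (SD, n = 3). With only the peaks that overlap another list it was 43.8%, 21.3% and 42.5%, so the order of the replicates depends on which peaks enter. The best and the weakest peaks stood at 0.118% and 98.3% in replicate 1, at 0.898% and 96.1% in replicate 2, and at 0.147% and 87.5% in replicate 3. In the top 10% of their lists were 3 peaks of replicate 1, 10 of replicate 2 and 8 of replicate 3. Peaks in both other lists numbered 15 in each list, and genome-wide 69.1%, 12.7% and 52.8% of the peaks of replicates 1, 2 and 3 were of this kind.

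**Figure D2:**
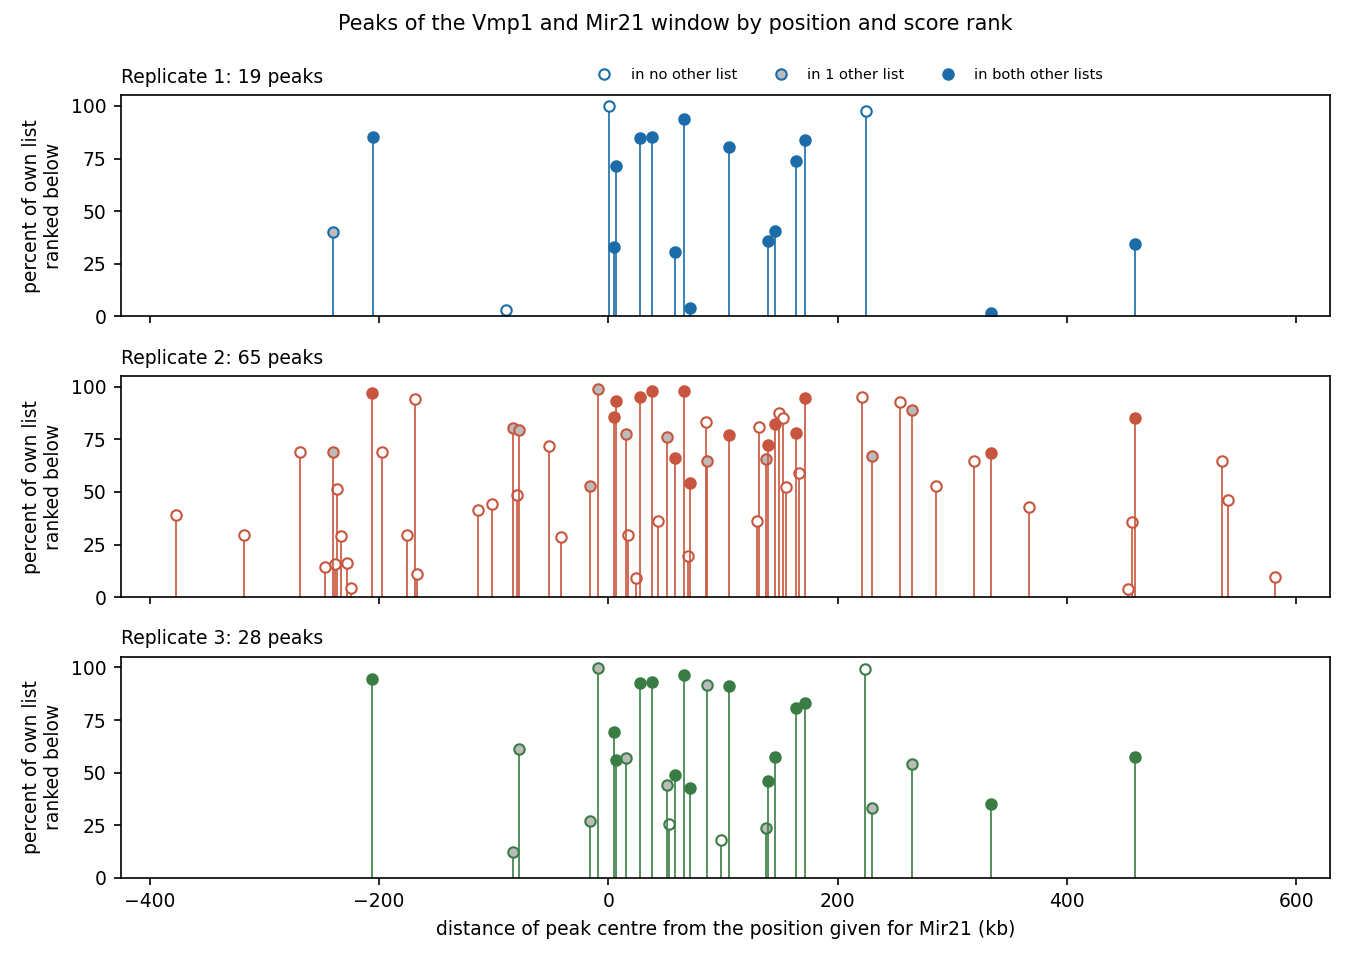
Each peak of the stretch by the distance of its centre from the position given for Mir21 (horizontal axis, kb) and by the percent of its own list ranked below it (vertical axis, 100 is the highest score), with 1 panel per replicate. Filled circles are peaks that overlap both other lists, grey ones overlap 1 and open ones none, in the colour of the replicate; open circles at the top of the replicate 1 panel near 0 and 225 kb and of the replicate 3 panel near 224 kb are strong peaks found in that list alone.

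The 15 regions with peaks of all 3 replicates were led by a site at 86465984 to 86466586, 66.3 kb above the position given for Mir21. It ranked 409 of 6777 in replicate 1, 845 of 37307 in replicate 2 and 323 of 8862 in replicate 3, a mean of 3.98% ± 1.91 (SD, n = 3). At 603 bp it was also the widest of the 26 regions. Among the 4681 regions genome-wide with all 3 replicates it took place 306 by mean rank, in the top 6.54%. It was the only region of the 26 in the top 10% of all 3 lists, and the share of such regions genome-wide was not computed.

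Next came a site away from the main gathering and a pair within it. The site at 86193987 to 86194433, at -205.8 kb from the Mir21 position (minus for lower coordinates) and with no other region within 13 kb, ranked 999, 1044 and 482 in replicates 1, 2 and 3, a mean of 7.66%. For the site at 86437834 to 86438336 the ranks were 997, 832 and 617 (7.97%). For that at 86427484 to 86427936 they were 1043, 1779 and 648 (9.16%). In replicate 1 these 3 sites stood close together, at 14.7% to 15.4% of the list. The sites at 86571034 to 86571336 (12.9%), 86505037 to 86505306 (16.9%) and 86563537 to 86563936 (22.5%) followed. In 6 of the 15 regions with all 3 replicates the peaks were in the top 25% of every list, and the share genome-wide was not computed. The median of the mean ranks was 26.5% for the 15, against 29.5% for all 4681 such regions.

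Nearest above the Mir21 position lay a pair of sites of middle rank, 1.77 kb apart between centres. The site at 86404837 to 86405236 ranked 4527 of 6777 in replicate 1, 5389 of 37307 in replicate 2 and 2721 of 8862 in replicate 3. The site at 86406584 to 86407036 ranked 1919, 2614.5 and 3903. By percent of list, the second site stood higher in replicate 1 (28.3% against 66.8%) and in replicate 2 (7.01% against 14.4%). In replicate 3 it stood lower (44% against 30.7%), so the lists did not share 1 order of the pair. Mean ranks of the 2 sites were 37.3% ± 26.8 and 26.5% ± 18.6 (SD, n = 3 each). These SDs include differences between the lists, so they do not measure the spread of the difference between the sites.

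The other 6 regions of all 3 replicates had mean ranks of 39.8% to 66.4%. Those at 86544984 to 86545286 (39.8%), 86858987 to 86859336 (41.1%), 86539007 to 86539286 (48.5%) and 86458137 to 86458583 (51.3%) were followed by those at 86733687 to 86734133 (64.8%) and 86471384 to 86471636 (66.4%). The last of these lay 5.22 kb from the best-ranked site and had replicate 1 and 2 peaks at 96.2% and 45.8% of their lists. Sites of high and of low rank thus lay side by side. Across the 15 regions Spearman's rho between the ranks was 0.85 in the lists of replicates 1 and 2, 0.921 in those of 1 and 3 and 0.839 in those of 2 and 3, given as a description of regions that share their libraries. The median rank of these 15 was 28.3%, 15.1% and 30.7% in replicates 1, 2 and 3, against 39.7%, 8.62% and 33.9% for all 4681 such regions. The centres of the peaks within a region lay 28 to 172 bp apart at most, with a median of 78 bp, and the stretch covered by all 3 peaks was 103 to 447 bp long.

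**Figure D3:**
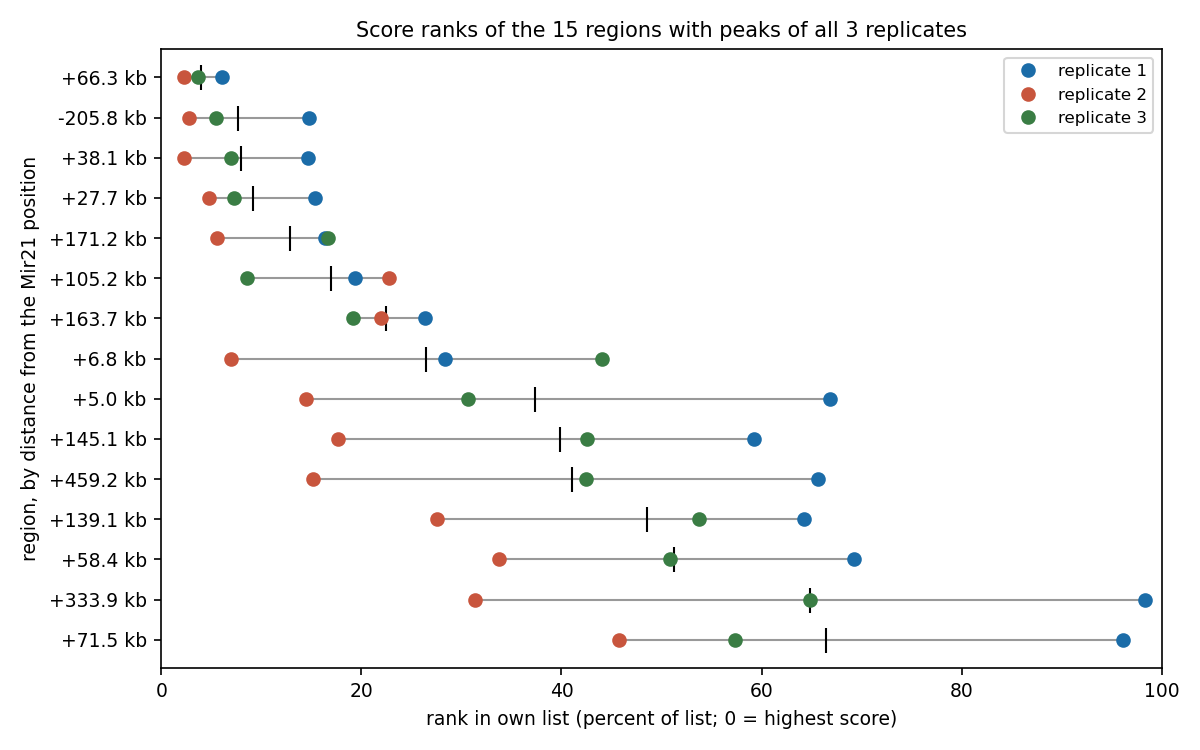
Rank of each of the 15 regions with peaks of all 3 replicates as percent of the own list (horizontal axis, 0 is the highest score), with a coloured point per replicate, a grey line over their range and a black tick at their mean; regions are ordered by the mean and named by distance from the position given for Mir21. Replicate 2 has the lowest percent in 13 of the 15 and replicate 1 the highest in 12, and the region at +66.3 kb has the lowest mean, 3.98%. Over all 4681 such regions genome-wide, replicate 2 also has the lowest median percent (8.62%) and replicate 1 the highest (39.7%).

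Within the stretch, the highest-scored peak of each list lay within about 10 kb of the position given for Mir21, yet not at the same place. None of them led its whole list, where scores reach 1000. In replicates 2 and 3 it was at 86390787 to 86391086, where the score was 958.844 in replicate 2 (a score shared by 549 peaks, which hold ranks 61 to 609) and 815.274 in replicate 3 (rank 13). No replicate 1 peak overlapped this region. By the mean rank of its 2 peaks it took place 2 of the 3406 regions genome-wide that had peaks of replicates 2 and 3 without replicate 1. In replicate 1 the best peak was at 86400334 to 86400833, 9.65 kb higher between centres, with a score of 811.29 (rank 8). It overlapped no peak of the other lists, and the nearest were 3.92 kb away in replicate 2 and 4 kb away in replicate 3. Among the 385 replicate 1 peaks found in no other list, it took place 3 by score.

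A second place with strong peaks that did not overlap lay 221.5 to 225.1 kb above the Mir21 position. Replicate 2 had a peak at 86621207 to 86621706 (rank 1898, 5.09%), replicate 3 at 86623587 to 86624086 (rank 48, 0.542%) and replicate 1 at 86624984 to 86625283 (rank 150, 2.21%). All 3 lay within 4.08 kb, with 1.88 kb free between the peaks of replicates 2 and 3 and 0.897 kb between those of replicates 3 and 1. They form no region, since no 2 of them share a base. Genome-wide, 34 peaks in the top 10% of replicate 1 overlapped no other list, and 3 of these, this one included, had such a peak of replicate 2 and one of replicate 3 within 5 kb.

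**Figure D4:**
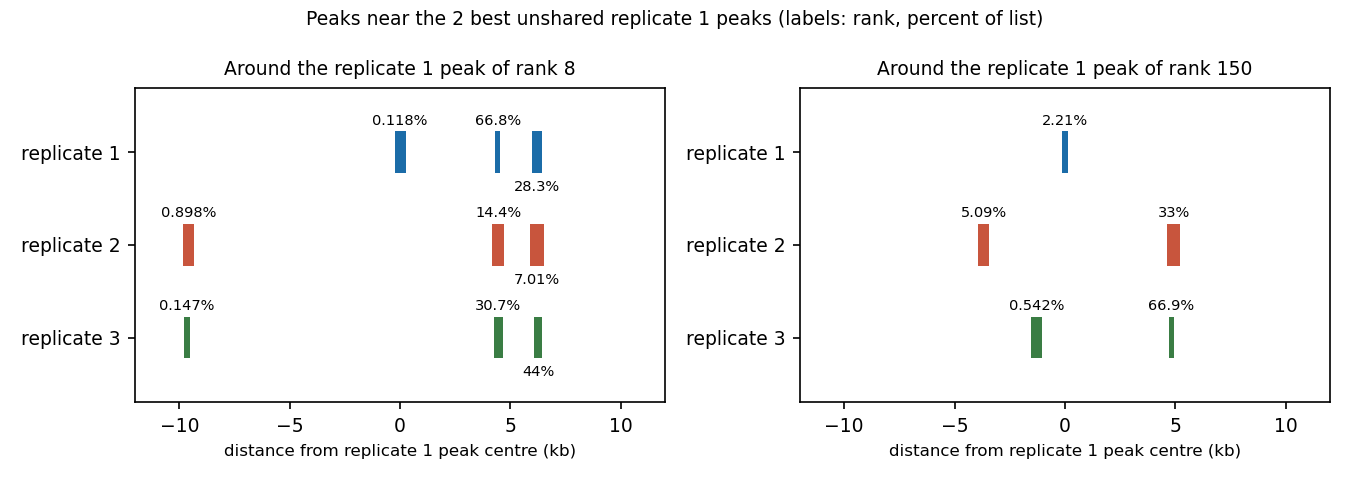
Peaks of the 3 replicates as bars of true width (horizontal axis, kb from the centre of the named replicate 1 peak; 1 row per replicate), labelled with the rank as percent of the own list. On the left, the replicate 1 peak at 0.118% has no bar below it, while replicates 2 and 3 share one 9.65 kb to its left at 0.898% and 0.147%; on the right, the peaks at 2.21%, 5.09% and 0.542% do not overlap.

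The names of the peaks carry numbers that follow position in all 3 lists, and some numbers are absent from them. Around the rank 8 peak of replicate 1, the neighbouring peaks of replicate 2 and of replicate 3 had consecutive numbers, so no numbered peak is absent from these lists there. The same was true of replicates 2 and 3 at the replicate 1 peak of rank 150. Replicate 1 lacked 2 numbers between 86571333 and 86624984, an interval that holds the replicate 2 and replicate 3 peaks of that place. Where in this interval the absent numbers belonged is not known. Replicate 1 also lacked 2 numbers between 86310833 and 86400334, the interval that holds the region shared by replicates 2 and 3. Of the 10 regions without replicate 1, 4 lie in this interval. The 10 regions fall into 6 intervals between replicate 1 peaks, 5 of which lacked a number, 7 numbers in all, while the interval around the region at 86451157 to 86451586 lacked none. Counted by region, 9 of the 10 (90%) lay in an interval that lacked a number. Genome-wide, 69% of 3386 regions without replicate 1 and with replicate 1 peaks on both sides did. An interval that holds several regions counts several times in these shares. Counted by interval, 5 of 6 lacked a number here and 1401 of 2246 genome-wide. In the stretch as a whole, 44.1% of the numbers were absent in replicate 1, 24.4% in replicate 2 and 17.6% in replicate 3, against 39.1%, 19.7% and 38.8% over the lists. What the absent numbers stood for was not tested.

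The peaks of rank 1000 or better in 1 list only were those given above. Of all peaks of such rank in the stretch, 2 of 5 in replicate 1, 0 of 3 in replicate 2 and 1 of 8 in replicate 3 overlapped no other list, and the shares over the whole lists were 4.7%, 4.4% and 3.6%. These are shares of 3 to 8 peaks. Over all ranks, 3 of 19 peaks of replicate 1, 39 of 65 of replicate 2 and 3 of 28 of replicate 3 were in no other list, against 5.68%, 74.3% and 6.84% over the lists. The other unshared peak of replicate 1, at 86310684 to 86310833, stood at 97% of its list, and the other unshared peaks of replicate 3 stood at 74.2% and 81.8%.

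The 39 peaks of replicate 2 alone had a median score of 64.8, against 256.3 for the replicate 2 peaks in both other lists. The median over the whole list of replicate 2 was 78.0. By rank, the medians in the stretch were 57.2% of the list for the 39 and 15.1% for the peaks in both other lists. Over the whole list they were 61.2% and 8.65%, so such a gap was not particular to the stretch. The ranks of the 39 ran from 5.09% to 96.1% of the list. In the top 10% were 3 of them, the peak of rank 1898 given above, one at 86230657 to 86231106 (5.87%) and one at 86653757 to 86654556 (7.15%), which at 800 bp was the widest peak of any list here. A region's centre lay within 13 kb of 22 of the 39. The 187.4 kb of the main gathering held 11 of them. The lists of replicates 1 and 3 are shorter, so the absence of a peak from them does not show that the place was unbound.

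Of the 10 regions without replicate 1, the one near the Mir21 position was the best in replicates 2 and 3. The 10 stood between 0.898% and 47% of the list in replicate 2, with a median of 23%, and between 0.147% and 87.5% in replicate 3, with a median of 50.8%. The region at 86486187 to 86486586 was placed higher by replicate 3 (8.16%) than by replicate 2 (35.5%), and that at 86664987 to 86665436 was placed higher by replicate 2 (11.1%) than by replicate 3 (45.8%). The sole region without replicate 3, at 86160084 to 86160383, stood at 59.9% in replicate 1 and 30.9% in replicate 2.

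Among the 1 Mb windows of the genome that held any region, 1748 in number with a mean of 5.61 regions, 5 held more than these 26 and 1 other held as many, which is place 6.5 with tied places averaged. This depends on the window borders, since windows moved by 0.5 Mb took place 37 when moved down (19 regions) and 22.5 when moved up (21 regions). By regions of all 3 replicates, 2 windows held more than these 15. With this window included, 3 windows held 15, which is place 4 with tied places averaged. On either side of the stretch the megabase below held 4 regions and the one above 18. The one above had a similar median spacing, 13.6 kb against 13.3 kb here, and a largest group of 6 regions against 5. Just outside the borders, the nearest regions were at 85893787 to 85894283, with all 3 replicates, and at 87027887 to 87028006, with replicates 2 and 3. Just inside were those at 86160084 to 86160383 and at 86858987 to 86859336, the first and the last of the 26. Of the 5 windows with more regions only 3 were compared, and the tied window was not. The 3, on chromosomes 14 (73 to 74 Mb), 16 (24 to 25 Mb) and 10 (98 to 99 Mb), held 31, 30 and 30 regions. Their median spacing was 20.2, 19.3 and 19.7 kb, and 61.3%, 60% and 43.3% of their regions had all 3 replicates. These windows were themselves picked for their counts, so no test was made between them.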

How the data were processed

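ChIP-seq against the HA tag was analysed from 1 group of 3 replicates, numbered as in the sample titles. Per the labels, coordinates are of build mm9, named in the submitters' processing notes. Positions are printed counting from 1. For each replicate the authors deposited peaks called in that replicate alone, each with a peak score. Scores had 3 decimals and a ceiling of 1000. Peak names are of the form that MACS writes. The caller's version is not given in the sources used here, nor are its threshold, the aligner and the use of control reads. Sequencing depth is unknown, so scores were used only as ranks within a list (mean rank for ties).

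A table deposited by the authors lists intervals covered by at least 2 replicates and names those replicates, with no other value. Touching intervals were joined to 9800 regions, all of which were rebuilt from the lists with equal borders. Replicates were assigned to regions by overlap of at least 1 bp with the lists, and not by the names in the table. As written, those names matched the lists for 42 of 56 rows in the stretch and 13753 of 19164 in the whole table. With replicates 2 and 3 exchanged, all 56 and all 19164 matched. Which of the 2 namings is right was not established. The stretch, gene names and alternatives were chosen with earlier results of these data known. Regions of all 3 replicates were named in order of mean rank percent, with the best peaks of each list, the widest region and those nearest Mir21 and the borders. The other unshared peaks and regions that are named were chosen after their values were seen. No significance test was made, as peaks and regions are not replicates. Gene features and sequences at the peaks need an mm9 genome and were not analysed here. Interval code was tested on simulated data. Python 3.11.15, numpy 2.4.6, pandas 2.3.3 and matplotlib 3.10.9 were used.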

Additional observations from a re-analysis of the deposited data

How the results depend on the processing

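The 26 regions, the 15 with all 3 replicates and the peak counts of each list did not change when any overlap with the stretch counted, when overlapping peaks were merged or when intervals up to 100 bp apart were joined, where these applied; the overlap rule for peak counts was chosen after seeing the data. With the higher-scored 50% of each list there were 16 regions and 8 with all 3, and with each list limited to its best 6777 there were 17 and 9, both from shorter lists. Asking for 50% mutual overlap in every pair left 9 with all 3. Leaving out each replicate gave 15 to 25 regions. The 6 groups became 3 at 5 kb. The largest group of 5 became 2 at 5 kb and 18 at 50 kb, 3 with regions of all 3 replicates only, and 3 to 5 when each replicate was left out. With only the peaks that overlap another list, the median rank was 43.8% in replicate 1 and 21.3% in replicate 2. Strong unshared peaks of replicate 1 and many lower-ranked ones of replicate 2 then drop out. By number of regions the stretch held place 6.5 among 1 Mb windows (tied places averaged), 4 with regions of all 3 replicates only, and 3.5 to 9 when each replicate was left out. Windows moved by 0.5 Mb took place 37 when moved down (19 regions) and 22.5 when moved up (21 regions). No paired analysis was possible because the samples form a single group. Depth is unknown, so a missing peak is not shown to be unbound DNA.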
